A study of Mus musculus with 6 samples.

Results

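The TAM receptors TYRO3, AXL and MERTK are receptor tyrosine kinases that bind phosphatidylserine on dying cells through a pair of vitamin K-dependent bridging ligands, GAS6 and protein S (gene Pros1). GAS6 binds all of the TAM receptors, whereas protein S acts mainly on TYRO3 and MERTK. The receptors drive the engulfment of apoptotic cells and dampen innate immune signalling, and protein S is also a plasma anticoagulant. In the kidney, GAS6 is known as a growth factor for mesangial cells, and MERTK is best known from phagocytes.

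FOXC2 binding was examined at these 5 genes, Tyro3, Axl, Mertk, Gas6 and Pros1, of 21951 protein-coding genes in the annotation. A peak is a stretch of genome with more FOXC2 ChIP-seq reads than its local control, and its summit is the highest point. The gene start was the 5′ end of the GENCODE gene record on GRCm38. Every peak that overlapped the window of 50 kb on either side of this start was assigned to the gene. This gave 45 of 40067 ADR peaks and 38 of 41075 PBS peaks.

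The study asked how binding of the forkhead TF FOXC2 changes in podocytes, the epithelial cells of the glomerular filter, after injury. The ADR group had 3 samples of podocytes from adult mT/mG reporter mice given Adriamycin, a podocyte toxin, at 18 mg/kg on D0 and D7 with cells sorted on D9, and the PBS group had 3 samples from mice given PBS on the same days. All mice carried the mT/mG reporter and a Cre active in podocytes, which turns these cells green for FACS, and were littermates of mixed genetic background; their age is not given in the sources used here. The antibody was the same for both groups. The authors pooled the 3 samples of a group into 1 peak list, and only these pooled lists were used here. They hold no replicate spread, so no test between ADR and PBS was run here, and intervals below cover counting error only. The study itself tested ADR against PBS binding, and that test is not used here.

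Peak height is given as the fold over the local control that the authors' peak caller wrote. The read depth behind the lists is unknown here, and a taller peak from more bound cells cannot be told apart from more binding per cell. The median fold was 7.42 for all ADR peaks and 6.53 for all PBS peaks. Genes that mark podocytes carried peaks in both lists, with 18 ADR and 16 PBS peaks for Podxl, 11 ADR and 10 PBS for Wt1, 9 ADR and 10 PBS for Nphs1, and 15 ADR and 18 PBS for Synpo. Of the macrophage markers Adgre1, Itgam and Ptprc had 0 peaks in either list, although Cd68 and Csf1r had peaks, and that list totalled 25 ADR and 23 PBS peaks. The endothelial markers totalled 10 ADR and 12 PBS peaks, with Cdh5, Emcn and Tek at 0, and the mesangial markers totalled 35 ADR and 39 PBS peaks. The proximal tubule markers totalled 25 ADR and 15 PBS peaks, of which Slc34a1 gave 13 ADR and 4 PBS peaks. Peaks show binding and not expression, and the part of other cells in the results below was not tested.

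The sequences below carry the sites described next. They are windows of 201 bases centred on a peak summit, read from the plus strand of GRCm38. Capitals mark matches, on either strand, to motifs listed further below, and positions in kb run from the gene start, negative upstream. The first set holds the strongest site of each receptor, and of Pros1 among the ligands, that lies outside annotated UTRs.
Tyro3 intron, 6.7 kb, TEAD match (chr2:119804356-119804556): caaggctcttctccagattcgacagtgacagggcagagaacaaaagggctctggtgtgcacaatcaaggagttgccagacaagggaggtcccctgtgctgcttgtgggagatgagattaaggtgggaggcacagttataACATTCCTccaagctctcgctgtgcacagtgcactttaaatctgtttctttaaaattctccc
Axl locus, exon of a Cyp2s1 transcript, -16.3 kb, WT1 match (chr7:25804923-25805123): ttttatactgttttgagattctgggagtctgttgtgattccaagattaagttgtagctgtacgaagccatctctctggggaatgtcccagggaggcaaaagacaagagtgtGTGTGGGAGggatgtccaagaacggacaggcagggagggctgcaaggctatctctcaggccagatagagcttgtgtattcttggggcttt
Mertk promoter, -0.2 kb, WT1 and KLF matches (chr2:128698651-128698851): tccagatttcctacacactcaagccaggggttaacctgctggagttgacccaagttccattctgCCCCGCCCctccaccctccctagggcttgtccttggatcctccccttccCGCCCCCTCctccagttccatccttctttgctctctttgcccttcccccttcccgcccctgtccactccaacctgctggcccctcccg
Pros1 intron, 18.5 kb, no match (chr16:62872671-62872871): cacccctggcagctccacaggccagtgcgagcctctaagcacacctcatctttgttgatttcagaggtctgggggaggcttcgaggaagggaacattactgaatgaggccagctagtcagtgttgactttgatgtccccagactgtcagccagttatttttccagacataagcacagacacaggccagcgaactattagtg

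The second set holds the Axl and Mertk sites that differed most between the lists. The Axl intron site was taller in PBS and the others shared by both lists were taller in ADR. The last pair shows a Mertk site found in the ADR list only, with a forkhead match, and one found in the PBS list only, with TEAD, WT1 and AP-1 matches in that order.
Axl intron, 7.1 kb, no match (chr7:25781542-25781742): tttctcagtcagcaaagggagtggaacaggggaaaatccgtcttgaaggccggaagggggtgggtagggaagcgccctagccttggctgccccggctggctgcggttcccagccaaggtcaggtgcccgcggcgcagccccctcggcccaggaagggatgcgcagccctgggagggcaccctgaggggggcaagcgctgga
Axl locus, promoter of Cyp2s1, -27.0 kb, 2 WT1 matches (chr7:25815625-25815825): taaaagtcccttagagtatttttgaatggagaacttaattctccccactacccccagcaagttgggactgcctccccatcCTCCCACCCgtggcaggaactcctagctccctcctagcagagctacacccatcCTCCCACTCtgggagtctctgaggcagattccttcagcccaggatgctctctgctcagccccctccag
Mertk upstream, -6.0 kb, TEAD and AP-1 matches (chr2:128692874-128693074): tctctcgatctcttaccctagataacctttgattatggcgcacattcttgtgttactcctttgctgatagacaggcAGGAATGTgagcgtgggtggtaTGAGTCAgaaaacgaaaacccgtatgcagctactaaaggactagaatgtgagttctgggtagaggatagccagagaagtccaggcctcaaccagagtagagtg
Mertk intron, ADR only, 29.3 kb, forkhead match (chr2:128728119-128728319): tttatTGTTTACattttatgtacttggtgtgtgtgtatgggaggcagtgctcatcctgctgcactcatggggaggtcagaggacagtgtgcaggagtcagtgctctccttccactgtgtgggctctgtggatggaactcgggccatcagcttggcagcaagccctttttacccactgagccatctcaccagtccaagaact
Mertk intron, PBS only, 44.6 kb (chr2:128743412-128743612): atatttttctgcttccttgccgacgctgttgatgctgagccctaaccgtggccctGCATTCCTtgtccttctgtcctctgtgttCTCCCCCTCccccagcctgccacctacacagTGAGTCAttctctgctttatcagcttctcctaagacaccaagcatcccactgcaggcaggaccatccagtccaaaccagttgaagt

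Across the family, most sites were bound in both conditions. Peaks of the lists that overlapped by at least 1 bp were merged into sites, which gave 51 sites at the 5 genes. Of these, 31 had peaks of both lists (60.8%, 95% Wilson interval 47.1 to 73.0%), against 50.1% of all sites. A further 13 had ADR peaks only (25.5%, 15.5 to 38.9%), against 24.3% of all sites, and 7 had PBS peaks only (13.7%, 6.81 to 25.7%), against 25.5% of all sites. The ADR-only and shared shares hold the share of all sites within their intervals, and so does the PBS-only share, at its upper end. Sites of 1 list were low: the folds ran from 3.44 to 8.33 (median 4.73) at ADR-only sites and from 4.20 to 8.66 (median 6.27) at PBS-only sites. The 17 sites with a fold of at least 10 in either list all had peaks of both lists, as did 82.8% of all sites of that height.

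At the 31 shared sites, the ADR fold was higher at 19 and lower at 12. The ADR fold was at least 1.5 times the PBS fold at 10 sites (32.3%), against 23.9% of all shared sites, and at least 1.5 times lower at 5 (16.1%), against 17.5% of all shared sites. The median log2 ratio of ADR over PBS fold was 0.253 (95% order-statistic interval over sites, which are not replicates, -0.105 to 0.586), with a range of -1.65 to 1.43, and the median over all shared sites was 0.0457. The interval includes that value. After centring on it, 8 sites remained at least 1.5 times higher, against 22.2% of all shared sites, and 5 at least 1.5 times lower, against 19.2%. Summits at shared sites lay a median of 25 bp apart.

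**Figure D1:**
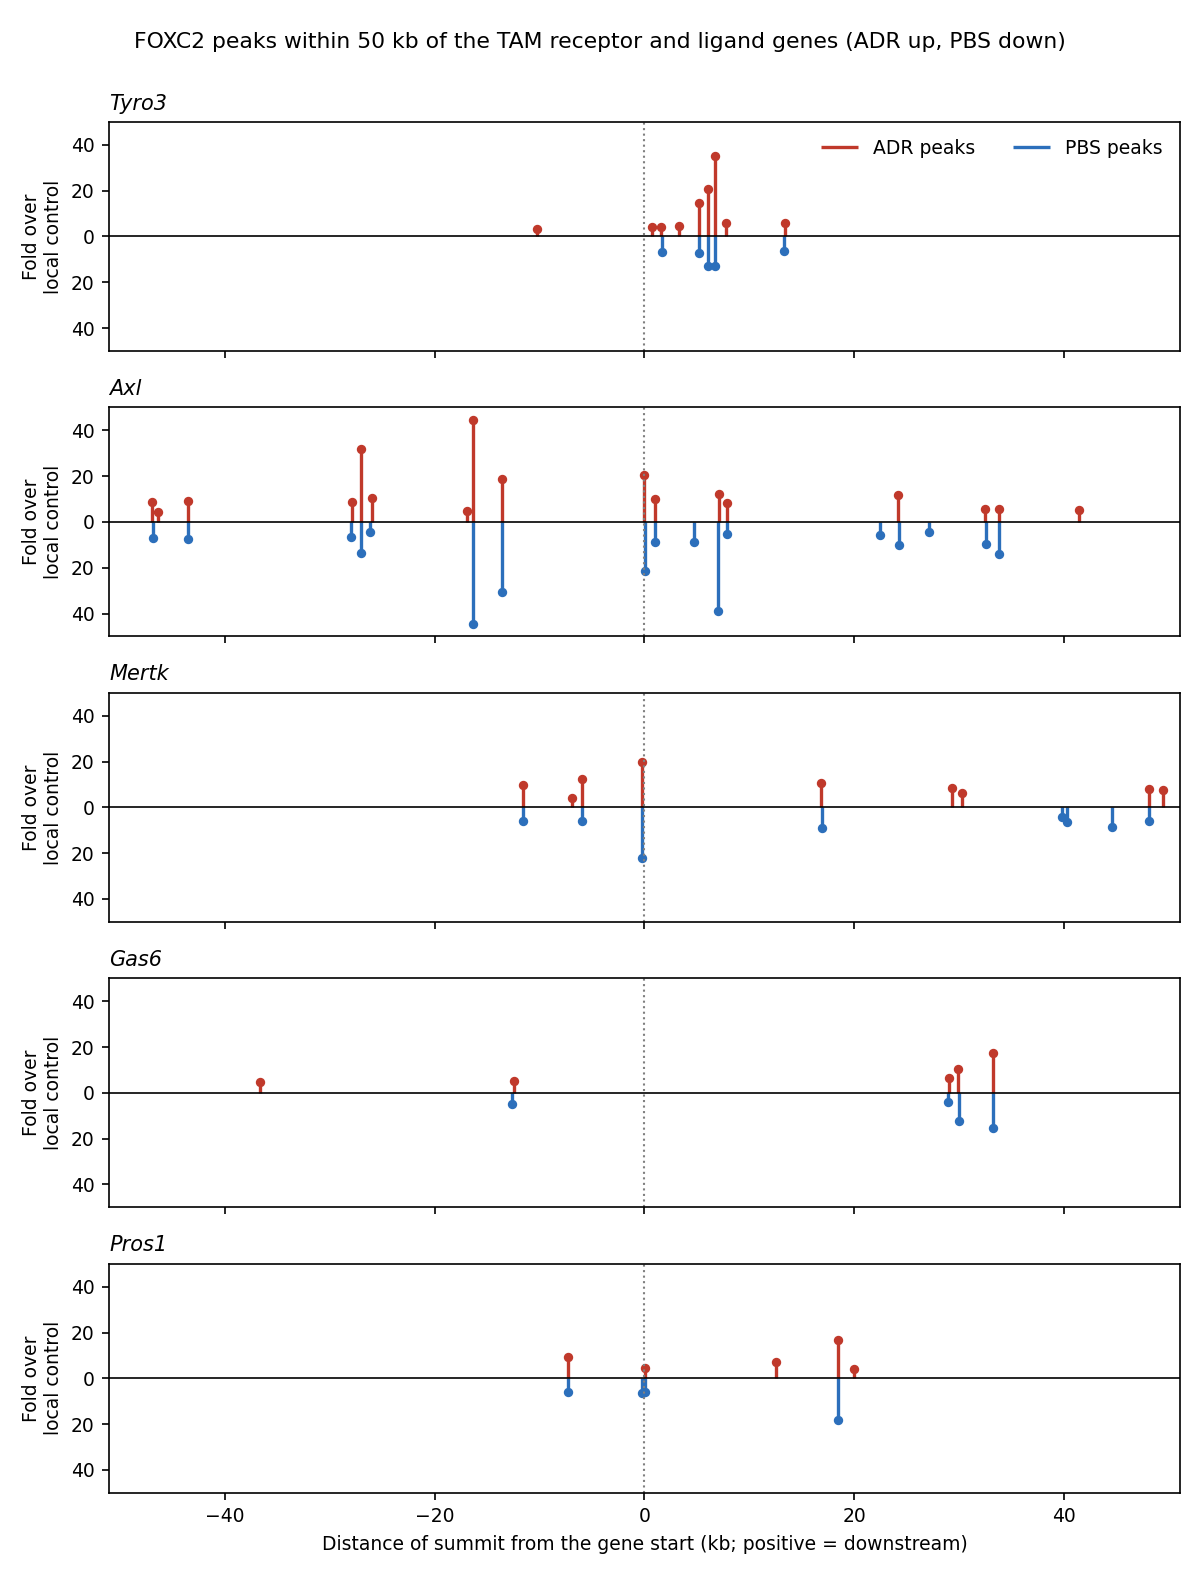
Fold over local control (y axis, ADR upward and PBS downward) of each FOXC2 peak against the distance of its summit from the gene start in kb (x axis), with 1 panel for each gene and 1 line for each peak of the pooled lists. The tallest Tyro3 lines stand together within the gene and are taller for ADR, Axl has peaks across the whole window, and Gas6 has none within 10 kb of its start.

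By count, 4 of the 5 genes had more ADR than PBS peaks, against 27.2% of the 16880 protein-coding genes with a peak within 50 kb; fewer ADR peaks were seen at 44.1% of those genes and at none of the 5. Tyro3 had 9 ADR and 5 PBS peaks. Mertk had 9 ADR and 8 PBS peaks, and Gas6 and Pros1 each had 5 ADR and 4 PBS peaks, so these 3 genes differed by a single peak. Axl had 17 peaks in each list. In the narrower window of 10 kb, ADR peaks outnumbered PBS peaks at 2 of the 5 genes, against 17.6% of protein-coding genes with a peak in that window. They were outnumbered at 2, Axl and Pros1, against 30.3%. Gas6 had 0 peaks in either list in that window, so it is not among the genes these shares cover. Tyro3 had 7 ADR and 4 PBS peaks there, Mertk 3 ADR and 2 PBS peaks, Axl 4 ADR and 5 PBS peaks, and Pros1 turned to 2 ADR and 3 PBS peaks.

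Tyro3, the receptor best known from the nervous system, held the clearest ADR-side difference. An excess of 4 or more ADR peaks was reached by 2.39% of protein-coding genes with a peak. Tyro3 belongs to a group of genes that the study picked for increased FOXC2 binding and expression in these mice, so its direction is not independent evidence. The gene lies on chromosome 2 (chr2:119797733-119818104, plus strand), and the RefSeq start is 1781 bp downstream of the GENCODE record start used here.

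A cluster of shared sites in the body of Tyro3 carried its strongest binding. At 6.7 kb, in an intron, the fold was 35.1 in ADR and 13.0 in PBS, a ratio of 2.70. At 6.0 kb, near the end of a short Tyro3 transcript, it was 20.9 in ADR and 12.7 in PBS. All 3 neighbouring sites were taller in ADR, since at 5.2 kb, near the start of another Tyro3 transcript, the fold was 14.4 in ADR and 7.04 in PBS. A ratio as high as that at 6.7 kb was found at 6.31% of all shared sites. Its summits in the ADR and PBS lists were 4 bp apart, and the window printed above holds a TEAD match.

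The other Tyro3 sites were low. Next to the RefSeq start, at 1.6 kb, the fold was 4.31 in ADR and 6.78 in PBS, and at 13.4 kb it was 5.83 in ADR and 6.27 in PBS, so these shared sites ran the other way. The 4 ADR-only sites had folds of 3.44 at -10.2 kb, 4.05 at 0.7 kb, 4.60 at 3.3 kb and 5.83 at 7.8 kb. The site at -10.2 kb lay in the promoter of Rpap1, which encodes an RNA polymerase II-associated protein. Of the ADR-only folds, 3 were under 5, and with peaks of a fold of at least 5 only, or with the 20000 peaks of smallest q in each list, the difference in Tyro3 peak number was 0. The taller ADR folds of the intragenic cluster do not rest on these low peaks.

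Axl, which is bound by GAS6 with high affinity, stood in the most densely bound window. Its 17 ADR peaks were matched or exceeded by 1.10% of protein-coding genes with a peak, and its 17 PBS peaks by 1.75%. Of its 19 sites, 14 were shared, 2 were ADR only and 3 were PBS only, but only 6 had Axl as the nearest protein-coding gene start. The window also holds the starts of Cyp2s1, a cytochrome P450 gene at -28.2 kb, and Hnrnpul1, a gene for an RNA-binding protein at 33.9 kb. Axl lies on chromosome 7 (chr7:25757273-25788705, minus strand).

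At the Axl start itself binding was close in both lists, with a fold of 20.3 in ADR and 21.5 in PBS. At 1.0 kb it was 9.997 in ADR and 8.849 in PBS. The intron site at 7.1 kb differed most, with a fold of 12.3 in ADR and 38.8 in PBS, a ratio of 0.318. A ratio this low or lower was found at 1.20% of all shared sites. The ADR peak there was 1492 bp wide and the PBS peak 1454 bp, and the GC content at the summit was 68.2% in ADR and 74.6% in PBS. Next to it, a PBS-only site at 4.7 kb had a fold of 8.59, while the shared site at 7.9 kb was taller in ADR, with 8.15 in ADR and 5.30 in PBS. Binding within Axl therefore differed in both directions over a few kb.

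The strongest site of all 5 windows lay on the far side, at -16.3 kb in a retained-intron exon of Cyp2s1, and was equal in the lists at 44.7 in ADR and 44.7 in PBS. At the end of Cyp2s1, -13.6 kb from the Axl start, the fold was 18.8 in ADR and 30.5 in PBS. Around the Cyp2s1 start the folds ran the other way. The site at -27.0 kb, 1188 bp downstream of that start, was annotated as promoter of both Cyp2s1 and Gm26707. Its fold was 31.8 in ADR and 13.6 in PBS, a ratio of 2.34. The promoter site closer to the start, 331 bp downstream of it at -27.9 kb, differed less, with 8.84 in ADR and 6.78 in PBS. In a Cyp2s1 intron at -25.9 kb the fold was 10.6 in ADR and 4.55 in PBS. The Hnrnpul1 promoter at 33.8 kb was lower after ADR, with 5.44 in ADR and 14.1 in PBS, and the adjoining site at 32.5 kb had 5.54 in ADR and 9.62 in PBS. The other shared sites were slightly taller in ADR. Near the start of a short Axl transcript at 24.2 kb the fold was 11.8 in ADR and 9.88 in PBS. It was 9.24 in ADR and 7.60 in PBS at -43.5 kb, and 8.83 in ADR and 6.93 in PBS at -46.9 kb. The ADR-only sites at 41.4 kb and -16.9 kb had folds of 5.32 and 4.59, and the PBS-only sites at 22.4 kb and 27.1 kb had folds of 5.72 and 4.20. Of the 5 shared sites of the family that were at least 1.5 times lower in ADR, 4 were in the Axl window. That window held 14 of the 31 shared sites, and 3 of the 14 were at least 1.5 times higher in ADR. Over all shared sites, 17.5% were that much lower and 23.9% that much higher.

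**Figure D2:**
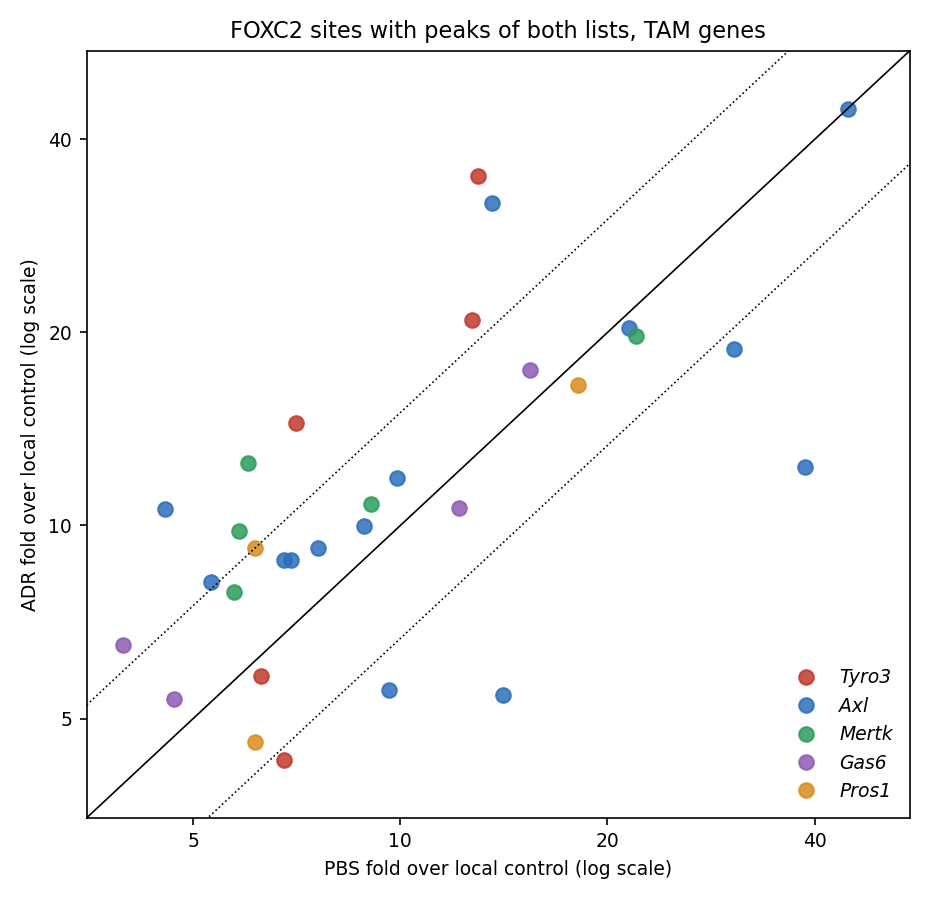
ADR fold (y axis) against PBS fold (x axis), both on log scales, at the 31 sites with peaks of both lists, with 1 point for each site coloured by gene; the solid line marks equal folds and the dotted lines a ratio of 1.5 either way. The Tyro3 points at 35.1 and 20.9 ADR fold lie above the upper line and the Axl intron site at 38.8 PBS fold far below the lower one.

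Mertk, the TAM receptor most closely tied to the engulfment of apoptotic cells, was bound at its promoter in both conditions. The peak at -0.2 kb had a fold of 19.8 in ADR and 22.0 in PBS, with summits 1 bp apart. This was the strongest of its 12 sites. Mertk is also one of the genes that the study treated as characteristic of podocytes. It lies on chromosome 2 (chr2:128698956-128802894, plus strand), and the window ends inside the gene.

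Away from the promoter, the shared Mertk sites were taller in ADR. At -6.0 kb, in the interval between Mertk and Anapc1, the fold was 12.5 in ADR and 6.01 in PBS, a ratio of 2.08. At the promoter of Anapc1, which encodes a subunit of the anaphase-promoting complex, -11.5 kb from the Mertk start, it was 9.79 in ADR and 5.83 in PBS. The intron sites differed less, with 10.8 in ADR and 9.05 in PBS at 16.9 kb and 7.88 in ADR and 5.72 in PBS at 48.1 kb. Sites of 1 list all lay within the gene except the ADR-only peak at -6.9 kb, which was intergenic. The ADR-only peaks were at -6.9 kb (fold 4.02), 29.3 kb (8.33), 30.3 kb (6.10) and 49.4 kb (7.74), and the PBS-only peaks at 39.8 kb (4.20), 40.2 kb (6.27) and 44.6 kb (8.66).

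Gas6, the ligand common to the TAM receptors, had 0 peaks within 10 kb of its start in either list. All of its stronger binding lay at or beyond the 3′ end of the gene (chr8:13465374-13494490, minus strand). At 33.2 kb, in the last exon of Tmem255b, the fold was 17.5 in ADR and 15.4 in PBS. At 29.9 kb, at the end of Gas6, it was 10.6 in ADR and 12.2 in PBS. The low sites were at 29.0 kb, with 6.51 in ADR and 3.95 in PBS, and at -12.5 kb, with 5.37 in ADR and 4.69 in PBS. A single ADR-only peak stood at -36.7 kb with a fold of 4.73. Of the 5 sites, 2 had Gas6 as the nearest protein-coding start.

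Pros1, which encodes protein S, had its strongest peak in an intron at 18.5 kb, with a fold of 16.6 in ADR and 18.1 in PBS. The gene start was weakly bound, with 4.60 in ADR and 6.16 in PBS, and a PBS-only peak at -0.2 kb had a fold of 6.29. The promoter of Arl13b, a ciliary GTPase gene at -7.3 kb, had 9.22 in ADR and 6.14 in PBS. The ADR-only sites at 12.6 kb and 19974 bp had folds of 6.95 and 4.26. Pros1 (chr16:62854307-62929346, plus strand) was the only member whose median log2 ratio over shared sites was below 0, at -0.13 over 3 sites, and its excess of 1 ADR peak turned to -1 within 10 kb, with peaks of a -log10 q of at least 5, and with peaks of a fold of at least 5.

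**Figure D3:**
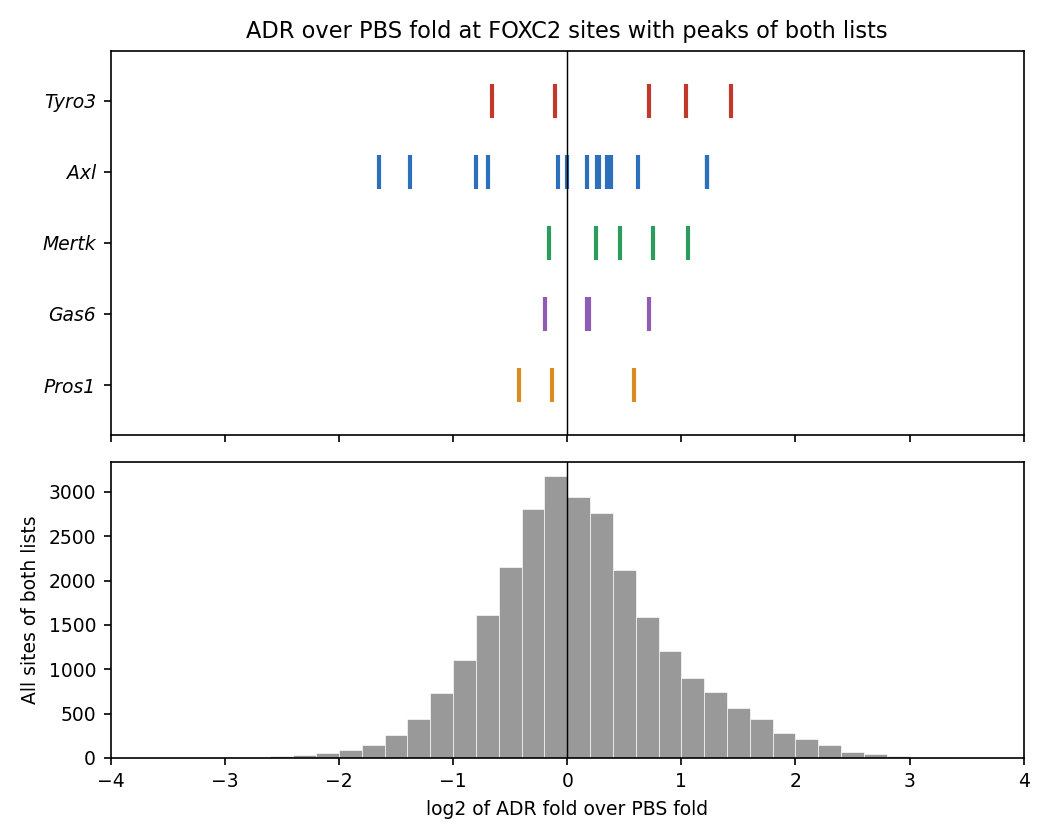
Upper panel: log2 of ADR fold over PBS fold (x axis) at each shared site of the 5 genes, with 1 tick for each site; lower panel: the number of all 26703 shared sites of the genome (y axis) in bins of the same ratio. The ticks run from -1.65 at Axl to 1.43 at Tyro3, inside the range of the genome-wide bins.

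Motif matches were counted within 100 bp of each summit, on both strands. The forkhead words were ACAAACA or ACAAATA or ATAAACA or ATAAATA or GCAAACA or GCAAATA or GTAAACA or GTAAATA, the family of words that FOXC2 and its relatives recognise. A forkhead word stood at 7 of 45 ADR summits (15.6%, Wilson interval 7.75 to 28.8%), against 25.1% of all ADR summits, and at 3 of 38 PBS summits (7.89%, 2.72 to 20.8%), against 19.5% of all PBS summits. The share was below that of all summits in both lists, and the intervals included the genome-wide share. The strongest sites printed above for Tyro3, Axl, Mertk and Pros1 have no such word.

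Split by site, a forkhead word stood at 5 of 13 ADR-only summits (38.5%), against 36.7% of all ADR-only summits, and at 1 of 7 PBS-only summits, the Axl site at 22.4 kb, against 20.4%. At the ADR summits of shared sites it stood at 2 of 32, against 19.6%. The 5 ADR-only summits belonged to Tyro3 at -10.2 and 0.7 kb, Mertk at 29.3 and 49.4 kb and Pros1 at 19974 bp. AP-1 words (TGACTCA or TGAGTCA) stood at 1 of 45 ADR summits, against 4.02% of all, and at 6 of 38 PBS summits (15.8%, 7.44 to 30.4%), against 9.33% of all. They were at 0 of 13 ADR-only summits, against 2.20% of all ADR-only summits, and at 3 of 7 PBS-only summits, against 17.2% of all PBS-only summits: Axl at 4.7 kb and Mertk at 39.8 and 44.6 kb.

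TEAD words (ACATTCCA, ACATTCCT, GCATTCCA, GCATTCCT) stood at 13.3% of ADR and 15.8% of PBS summits of the members, against 9.25% and 7.73% of all ADR and PBS summits. At Mertk, 2 of the 3 PBS-only summits held both a TEAD and an AP-1 word, and so did both summits at -6.0 kb. WT1 words (GNGGGGGAG, GNGGGGGCG, GNGTGGGAG, GNGTGGGCG) stood at 24.4% of ADR and 26.3% of PBS summits, against 29.0% and 28.6% of all. KLF words (GGGCGGGG, GGGCGTGG, GGGTGGGG, GGGTGTGG), whose letters can overlap those of WT1, stood at 9 of 45 ADR and 10 of 38 PBS summits, against 18.6% and 19.3% of all. LMX1B words (TTAATTA or TAATTAA) were found at 1 of 45 ADR and 0 of 38 PBS summits, against 3.52% and 1.52% of all, and the CTCF motif at 0 of either, against 0.834% and 1.505% of all. The median GC content of the windows was 54.2% in ADR and 56.7% in PBS, against 54.2% and 55.2% for all summits. A match describes letters in a window and not a bound factor.

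Around the receptors and ligands, 48 other genes of the pathway were followed, and 44 had a peak within 50 kb. More ADR than PBS peaks were found at 16 of the 44 (36.4%, against 27.2% of protein-coding genes with a peak) and fewer at 19 (43.2%, against 44.1%), with 245 ADR and 266 PBS peaks in all. The median difference was 0 peaks, and the mean over all genes with a peak was -0.419.

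The vitamin K cycle makes the ligands able to bind phosphatidylserine. Of its 4 genes, 3 had more ADR peaks and the other had the same number, with 36 ADR and 30 PBS peaks. The shares of all protein-coding genes with a peak were 27.2% with more and 44.1% with fewer. With the 20000 peaks of smallest q in each list, 1 of the 4 genes had more and 1 fewer, against 23.8% and 41.5%. Vkorc1, the vitamin K epoxide reductase, had 14 ADR and 11 PBS peaks, and Ggcx, the carboxylase itself, had 12 of each. Other clearance receptors and adaptors had more ADR peaks at 7 and fewer at 4 of 12 genes with a peak, against 27.2% and 44.1%. They had 71 peaks in each list. Under other settings, genes with more ADR peaks no longer outnumbered those with fewer. Within 10 kb, 3 of 11 genes had more and 4 fewer, against 17.6% and 30.3% of protein-coding genes with a peak. At a -log10 q of at least 5, the counts were 5 and 5 of 11, against 28.9% and 38.8%. At a fold of at least 5 they were also 5 and 5 of 11, against 33.2% and 35.2%. With the 20000 peaks of smallest q they were 3 and 3 of 10, against 23.8% and 41.5%. Itgb5, an integrin subunit, had 11 ADR and 8 PBS peaks, with a tallest fold of 44.7 in ADR and 14.3 in PBS; it too was among genes the study picked from these mice. Elmo1, an adaptor for Rac activation, had 8 ADR and 6 PBS peaks, while Itgav, the integrin partner of Itgb5, had 10 ADR and 14 PBS peaks and Stab1, a scavenger receptor, 7 and 11.

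Genes of signalling and feedback downstream of the receptors showed the opposite count. Fewer ADR peaks were found at 11 of 15 genes with a peak (73.3%, against 44.1%) and more at 1 (6.67%, against 27.2%), with 88 ADR and 113 PBS peaks. Socs3, a cytokine signalling suppressor, had 6 ADR and 13 PBS peaks, with 8 PBS-only sites and 1 ADR-only site. Partners of protein S had more ADR peaks at 3 and fewer at 1 of 4 genes with a peak, against 27.2% and 44.1%. Within 10 kb the counts turned to 0 more and 2 fewer of 3 genes, against 17.6% and 30.3%. With the 20000 peaks of smallest q they were 0 and 2 of 4, against 23.8% and 41.5%. For other ligands and bridging proteins, 1 of 4 genes had more and 2 had fewer within 50 kb, against 27.2% and 44.1%. For phosphatidylserine exposure genes the counts were 1 and 1 of 3, against the same shares. The sheddases Adam10 and Adam17 had equal numbers.

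**Figure D4:**
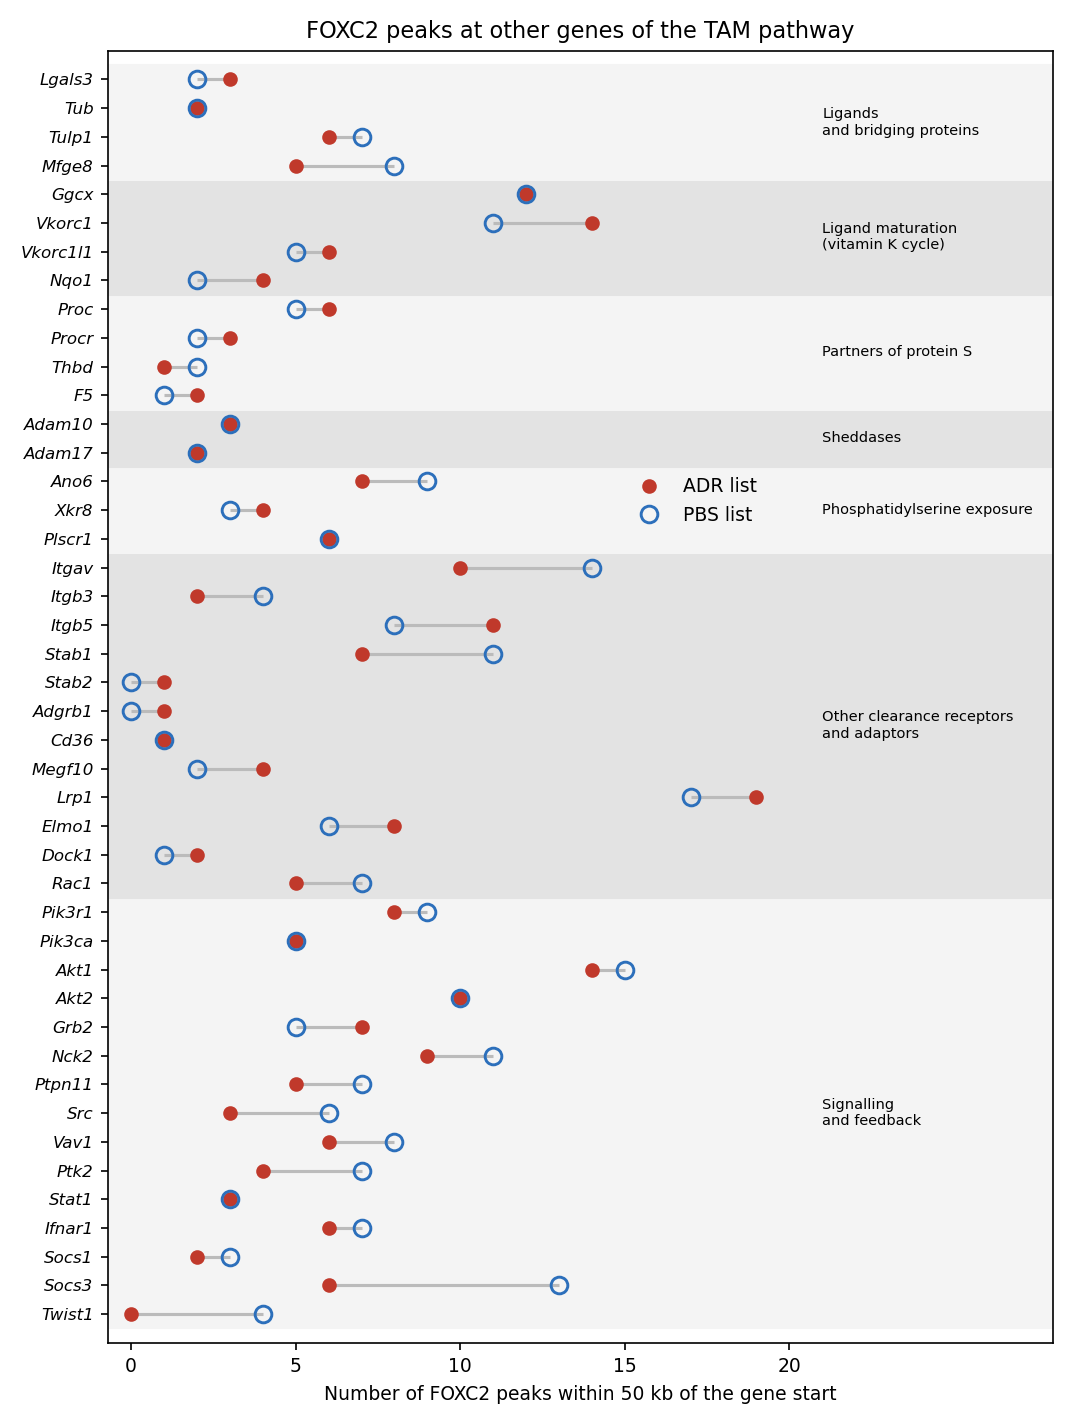
Count of FOXC2 peaks in the 50 kb window on either side of the gene start (x axis) for the 44 other pathway genes with a peak (y axis, grouped by role), with filled red points for ADR and open blue circles for PBS joined by a line. In the signalling and feedback block the ADR point lies left of the PBS circle for 11 of 15 genes, most of all for Socs3 at 6 and 13.

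The protein-coding genes most like each member were found over 4 values, the ADR and PBS peak numbers and the mean log2 folds of each list, by Euclidean distance in SD units. They were Sumf1 for Tyro3 (distance 0.131), Aamp for Axl (0.319), Mertk's match Ppard (0.183), Adnp for Gas6 (0.0368) and Slc25a20 for Pros1 (0.0361). Sumf1 also had 9 ADR and 5 PBS peaks, and Aamp had 16 ADR and 17 PBS peaks. Likeness here covers peak number and height only.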

How the data were processed

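FOXC2 ChIP-seq was measured in sorted podocytes of 3 ADR-treated and 3 PBS-treated samples. After read trimming and alignment to GRCm38, the authors used the nf-core/chipseq pipeline for narrow peak calling, with the replicates of a condition pooled; the versions and threshold are not given in the sources used here. Each deposited peak list gives positions, a score, the fold enrichment over the local control, −log10 p, −log10 q and the summit. The score, the −log10 p, the name and the strand columns were not used. The deposited fold is relative to the local background of its own list, so depth and pooling can change it, and read depth is unknown. Both lists are named as pooled and were taken as such, but their peak names refer to 1 sample each.

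Peaks with any part within 50 kb of a GENCODE M21 gene start were linked to it, and peaks of the lists overlapping by 1 bp were merged into sites. The work used Python 3.11.15, pandas 2.3.3, NumPy 2.4.6 and SciPy 1.17.1. A promoter ran from 1 kb upstream to 100 bp downstream of any transcript start. Folds at a site are of its tallest peak. The 5′ ends of all 5 genes were matched in RefSeq (GRCm38.p6). The lists hold no replicates, so no test was run, and shares have 95% Wilson intervals. The linking and merging steps were tested on simulated data. Members, gene lists and tests were chosen with earlier results of these data known. The text names all 5 members and the protein-coding gene nearest each site with a fold of at least 10. By the same rule it names the 3 pathway genes with the largest and the 3 with the smallest peak difference (ties by symbol). The rule also covers the gene most like each member outside 100 kb. Named outside this rule are Ggcx, Adam10, Adam17, Rpap1, Arl13b, Gm26707 and the genes marked as chosen after their values were seen. The marker lists (podocyte, macrophage, endothelial, mesangial, proximal tubule) were counted in the same way; 2 genes of the podocyte list are not reported here. Alternatives were other windows, starts, thresholds, overlaps, centring, merged sites and a motif window of 50 bp.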

Additional observations from a re-analysis of the deposited data

How the results depend on the processing

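The counts depend on the window and on the peak threshold. Within 10 kb there were 16 ADR and 14 PBS peaks, with 4 ADR-only, 2 PBS-only and 12 shared sites. In that window 2 of the 5 members and 8 of the 48 other pathway genes had more ADR peaks, against 17.6% of protein-coding genes with a peak. Fewer were seen at 17 of these 48, against 30.3%. In this section the counts of other pathway genes are out of all 48 followed, while the shares cover only genes with a peak. Within 25 kb there were 28 ADR and 23 PBS peaks, with 8 ADR-only, 3 PBS-only and 20 shared sites. With the 20000 peaks of smallest q in each list there were 26 ADR and 23 PBS peaks, with 6 ADR-only, 3 PBS-only and 20 shared sites. Under this limit 2 members had more ADR peaks, as with peaks of a fold of at least 5. Of the 48 other pathway genes 8 had more and 19 fewer, against 23.8% and 41.5% of protein-coding genes with a peak. The fold minimum, chosen for the pathway genes after seeing the data as was the limit of 20000 peaks, turned their counts to 21 with more and 16 with fewer ADR peaks. The shares of all protein-coding genes with a peak moved as well. They were 33.2% more and 35.2% fewer with the fold minimum, and 27.2% and 44.1% without it. These settings test fewer peaks by construction. Requiring 50% overlap of both peaks gave 11 PBS-only sites, and counting motifs within 50 bp put a forkhead word at 2.63% of PBS summits. The Pros1 difference turned from 1 to -1 within 10 kb, under a fold minimum of 5 and under a -log10 q minimum of 5, and the Axl difference, 0 peaks, moved between -2 and 1. The median log2 ratio stayed above 0 under every alternative run, from 0.177 to 0.381. Of the results that answer a comparison, 52 values under alternatives were within the set range and 22 were not. No paired analysis was possible because the deposited lists pool the replicates, which also kept single replicates from being left out. The pooled lists and the unknown depth limit what a difference of a few peaks can show.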

Other observations

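Within the signalling and feedback genes, the excess of genes with fewer ADR peaks kept its direction under the other settings run, though not its size. Of 15 genes with a peak, 10 had fewer ADR peaks and 0 had more within 10 kb, against 30.3% fewer and 17.6% more of all protein-coding genes with a peak. At a -log10 q of at least 5, 9 had fewer and 4 had more, against 38.8% and 28.9%. With the 20000 peaks of smallest q in each list 8 had fewer and 2 had more, against 41.5% and 23.8%, and with peaks of a fold of at least 5, 8 had fewer and 5 had more, against 35.2% and 33.2%. For the pathway genes, these last 2 settings were chosen after seeing the data. Twist1, a TF gene known for damping cytokine expression downstream of AXL, was chosen after its values were seen: it had 0 ADR and 4 PBS peaks, with a tallest PBS fold of 7.04. Src and Ptk2, a pair of tyrosine kinase genes also chosen after their values were seen, had 3 ADR and 6 PBS peaks and 4 ADR and 7 PBS peaks.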
